A study of Mus musculus with 10 samples.

Results

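The NF-kB genes described here are 10 genes of 31053 in the count matrices. Nfkb1, Nfkb2, Rel and Relb encode subunits of the transcription factor NF-kB. Nfkbia, Nfkbie and Tnfaip3 encode inhibitors that NF-kB itself induces. Traf1, Icam1 and Cd83 are target genes whose products act in survival signalling, adhesion and cell-surface interactions. They are given by name, without a threshold on measured values but with earlier results of these data known, and each was matched by symbol to 1 row of every matrix. Spleen cells came from BXD2 mice, an inbred strain that develops spontaneous lupus-like autoimmunity with large germinal centres. The p19-/- group was 3 BXD2-p19-/- mice, which lack the p19 subunit of IL-23 (p19-/- 1 and p19-/- 2 female, p19-/- 3 male), and the WT group was 2 female BXD2-WT mice. The labels state no treatment and no age, and both groups share the BXD2 background, so there is no non-autoimmune control. Each mouse gave 1 single-cell RNA library made with the 10x 5' kit and 1 B cell receptor library, and the study compared BXD2 mice with and without IL-23.

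NF-kB works through a pair of linked routes. In the canonical route, antigen receptors, CD40, Toll-like receptors or TNF receptors activate the IKK complex, the inhibitor IκBα (Nfkbia) is degraded, and dimers of p50 (Nfkb1) with RelA (Rela) or c-Rel (Rel) enter the nucleus. In the non-canonical route, CD40, the BAFF receptor or the lymphotoxin receptor stabilises the kinase NIK, which leads to processing of p100 (Nfkb2) to p52 and release of RelB (Relb) complexes. The canonical route ends in transcription of its own brakes, so that Nfkbia, Nfkbie and Tnfaip3 transcripts are commonly used as a readout of recent signalling. In the germinal centre, B cells divide and mutate in the dark zone and receive antigen receptor and T cell help, CD40 included, in the light zone.

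The start regions of these genes are shown because NF-kB binds the kB element, and the inhibitor genes are textbook examples of genes that carry it. RefSeq promoters on GRCm38.p6 were found for Nfkb2, Rel, Nfkbia, Nfkbie, Tnfaip3, Traf1 and Icam1. Nfkb1, Relb and Cd83 are named only. The 130 bases before the first listed start site of 7 genes are printed 5′ to 3′ on the strand of the gene, with matches to the kB consensus in capitals.
Nfkb2, chr19:46304607-46304736, plus strand: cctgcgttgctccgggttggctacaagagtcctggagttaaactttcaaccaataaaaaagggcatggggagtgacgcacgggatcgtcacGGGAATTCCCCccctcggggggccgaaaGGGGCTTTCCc
Rel, chr11:23770970-23771099, minus strand: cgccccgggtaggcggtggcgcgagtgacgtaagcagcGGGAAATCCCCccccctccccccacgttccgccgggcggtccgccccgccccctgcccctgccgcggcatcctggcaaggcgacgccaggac
Nfkbia, chr12:55492648-55492777, minus strand: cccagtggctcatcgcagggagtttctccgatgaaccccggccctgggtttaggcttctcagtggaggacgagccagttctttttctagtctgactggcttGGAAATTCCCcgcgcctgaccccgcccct
Nfkbie, chr17:45555570-45555699, plus strand: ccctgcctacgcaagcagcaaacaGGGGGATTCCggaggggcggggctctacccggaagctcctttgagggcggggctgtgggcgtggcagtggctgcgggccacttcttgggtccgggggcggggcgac
Tnfaip3, chr10:19015411-19015540, minus strand: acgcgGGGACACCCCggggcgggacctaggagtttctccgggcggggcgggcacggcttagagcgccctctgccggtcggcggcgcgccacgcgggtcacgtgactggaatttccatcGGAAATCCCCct
Traf1, chr2:34961773-34961902, minus strand: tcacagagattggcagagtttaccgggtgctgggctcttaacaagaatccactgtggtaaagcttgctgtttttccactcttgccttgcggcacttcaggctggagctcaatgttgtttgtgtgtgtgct
Icam1, chr9:21015810-21015939, plus strand: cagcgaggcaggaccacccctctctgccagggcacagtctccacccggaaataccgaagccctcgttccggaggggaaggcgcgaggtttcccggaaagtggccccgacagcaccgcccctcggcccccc
The search covered 250 bases before to 50 after each start site on both strands, and palindromic or overlapping matches on the opposite strand were kept. The kB consensus matched in 5 of 7 genes, and in 9.55% of the 27025 genes of the table. In Nfkbia the match nearest the start was GGGAATTTCC on the opposite strand. These letter matches are a description of sequence, and no binding was measured.

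After removal of barcodes with over 10% mitochondrial UMIs and of doublets, 9200 of 11355 barcodes remained, 944 to 2729 per mouse, and 68 barcodes occurred in more than 1 library. Total depth was 7712457 to 18093053 UMIs per library. The library of p19-/- 1 stood apart, with 36.0% of its barcodes over the mitochondrial limit against 9.17% to 13.2% in the other 4. Il23a, the gene for p19, had 0 UMIs in every library, WT included, so it does not check the genotype labels. Levels are given as CPM, the UMIs of a gene summed over all cells of a class in 1 mouse and scaled to 1000000 UMIs, and they are compared within a gene and not between genes. The classes were named from marker genes. All 11 germinal centre (GC) markers were higher in the GC B-like cells (2983) than in the other cells, as were all 10 markers of the mature non-GC B-like cells (612), all 9 of the follicular helper T (Tfh)-like cells (1812), all 7 of the regulatory T (Treg)-like cells (941), all 5 of the CD8 T-like cells (219) and all 12 of the macrophage or monocyte-like cells (569). The same markers named the classes, so their higher values are no independent check of the names. Members were left out of the clustering.

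Across the classes, the genes were highest in T cells and dendritic cells rather than in the GC B-like cells. Of 10 members, 5 had their highest mean in Treg-like cells (Nfkbia, Nfkbie, Tnfaip3, Traf1 and Cd83), 3 in dendritic cell-like cells (Nfkb2, Relb and Icam1), 1 in Tfh-like cells (Nfkb1) and 1 in macrophage or monocyte-like cells (Rel). Classes are clusters of the same cells, so these levels carry no test.

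**Figure D1:**
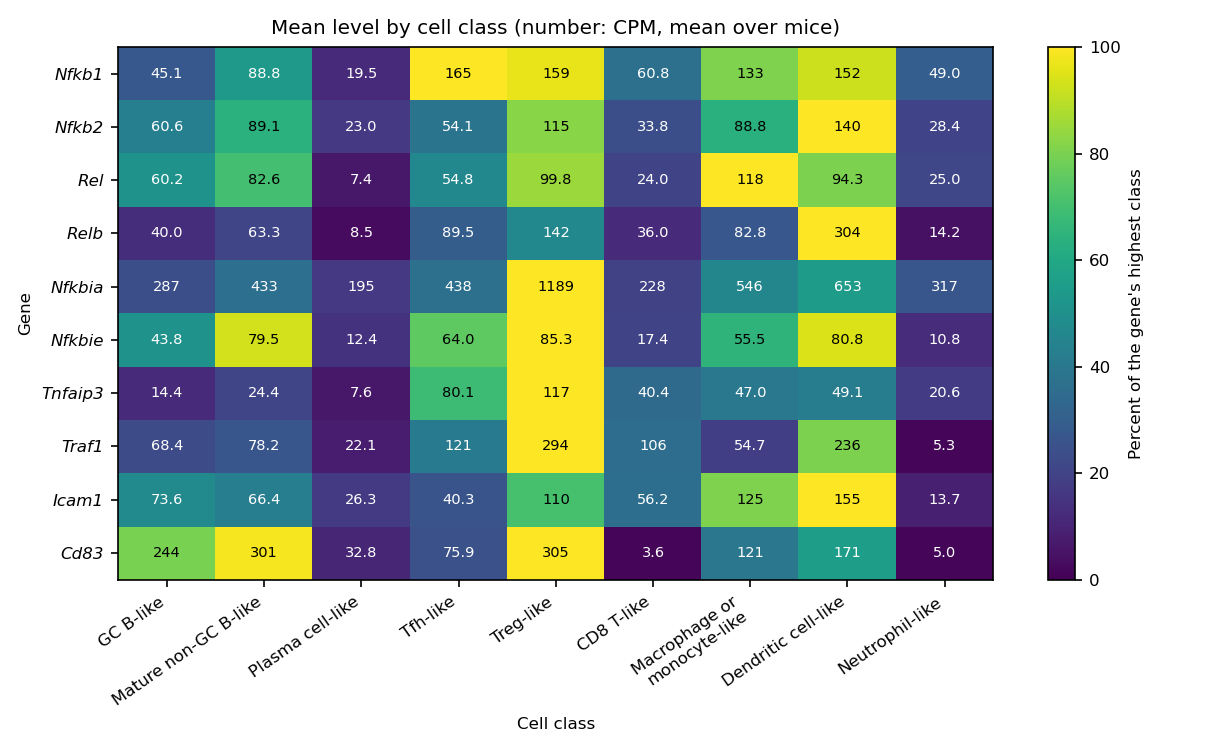
Heat map of mean level by cell class (columns) for each gene (rows). Numbers are CPM averaged over mice, and colour is the percent of the gene's highest class, so colours compare classes within a row only. Nfkbia peaks in Treg-like cells at a mean of 1189 CPM.

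Among the canonical subunits, Nfkb1, which encodes p105 and its product p50, had higher means in Tfh-like, Treg-like and macrophage or monocyte-like cells than in B cells. Its mean was 165 ± 23.6 CPM (SD, n = 5 mice) in Tfh-like, 159 ± 6.79 in Treg-like and 133 ± 31.0 in macrophage or monocyte-like cells. It was 88.8 ± 14.8 CPM in mature non-GC B-like, 45.1 ± 3.28 in GC B-like and 19.5 ± 9.43 in plasma cell-like cells. In the order of all cell groups only neighbours were compared for overlap, and only GC B-like against plasma cell-like cells did not overlap between mice. The plasma cell-like values came from 2 to 20 UMIs per mouse. CD8 T-like, unnamed B and neutrophil-like cells lay between mature non-GC B-like and GC B-like cells in that order, so those classes were not compared as neighbours. Rel, which encodes the c-Rel subunit prominent in lymphocytes, ran from 118 ± 32.5 CPM in macrophage or monocyte-like and 99.8 ± 23.5 in Treg-like cells through 82.6 ± 21.6 in mature non-GC B-like and 60.2 ± 5.65 in GC B-like to 7.35 ± 5.06 in plasma cell-like cells. Its neighbours overlapped, except Tfh-like cells (54.8 ± 6.0 CPM) against an unnamed B cluster (32.0 ± 9.34 CPM, 4 mice). The values of that cluster rest on few molecules, with 42, 2, 1 and 1 UMIs of Rel in p19-/- 1, p19-/- 2, WT 1 and WT 2.

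The non-canonical subunits were highest in dendritic cells. Relb, known for its part in dendritic cell maturation, had 304 ± 92.8 CPM (n = 4 mice with at least 10 such cells, 102 cells in all), 142 ± 25.9 in Treg-like, 89.5 ± 20.05 in Tfh-like, 63.3 ± 6.60 in mature non-GC B-like and 40.0 ± 7.89 in GC B-like cells. Nfkb2 had 140.0 ± 97.8 CPM in dendritic cell-like, 115 ± 31.6 in Treg-like, 89.1 ± 15.8 in mature non-GC B-like and 60.6 ± 10.1 in GC B-like cells. The dendritic cell value of Nfkb2 ranged from 47.2 to 269 CPM, so its place at the top of the order is not separated from the classes below it. For Relb the order of neighbours overlapped throughout.

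The inhibitors had their highest means in Treg-like cells. Nfkbia, the fast feedback inhibitor, reached 1189 ± 177 CPM there, against 546 ± 123 in macrophage or monocyte-like, 438 ± 55.3 in Tfh-like, 433 ± 47.9 in mature non-GC B-like, 287 ± 69.3 in GC B-like and 228 ± 39.1 in CD8 T-like cells. The lowest Treg-like mouse, 965 CPM, was above the highest of each of these classes. Treg-like cells did not stand apart from every group, since unnamed T cells (816 ± 159 CPM) reached 980.2 CPM, while dendritic cell-like cells (653 ± 171 CPM) reached 876 CPM. Thinning to 2000 UMIs kept 7520 cells and left out 1261 that were below this depth. A UMI of Nfkbia was then found in 67.1% of Treg-like, 60.5% of macrophage or monocyte-like, 32.2% of GC B-like and 32.1% of CD8 T-like cells. Macrophage or monocyte-like cells had medians of 1403.5 to 2570.5 UMIs per mouse, against 7763 to 14337.5 in GC B-like cells. The macrophage or monocyte-like share therefore covers only the deeper cells of that class. Tnfaip3, whose product A20 is a ubiquitin-editing brake on the IKK complex, had 117 ± 25.8 CPM in Treg-like, 80.1 ± 18.1 in Tfh-like, 24.4 ± 8.44 in mature non-GC B-like and 14.4 ± 3.87 in GC B-like cells. Nfkbie, which encodes IκBε, was flatter, at 85.3 ± 13.5 CPM in Treg-like, 79.5 ± 17.7 in mature non-GC B-like, 64.0 ± 5.63 in Tfh-like, 43.8 ± 12.8 in GC B-like and 17.4 ± 7.96 in CD8 T-like cells.

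The targets differed most in where they were low. Cd83, a marker of activated dendritic and light zone B cells, had 305 ± 51.5 CPM in Treg-like, 301 ± 48.1 in mature non-GC B-like and 244 ± 44.1 in GC B-like cells, against 75.9 ± 15.8 in Tfh-like and 3.63 ± 3.53 in CD8 T-like cells. At 2000 UMIs per cell, 37.6% of mature non-GC B-like, 32.8% of Treg-like, 32.2% of GC B-like and 0.0% of CD8 T-like cells had a Cd83 UMI. Traf1, an adaptor of the TNF receptor family, had 294 ± 61.2 CPM in Treg-like, 121 ± 10.8 in Tfh-like, 106 ± 19.02 in CD8 T-like and 68.4 ± 11.3 in GC B-like cells. Icam1, the adhesion ligand of LFA-1, had 155 ± 27.8 CPM in dendritic cell-like, 125 ± 29.0 in macrophage or monocyte-like, 110 ± 27.0 in Treg-like and 73.6 ± 10.8 in GC B-like cells. Within the myeloid class, a cluster led by C1q and Vcam1 genes (cluster 15) had 223 ± 69.9 CPM of Icam1, 297 ± 122 of Cd83 and 9.53 ± 9.38 of Traf1. A cluster led by Lyz2 and Ace (cluster 16) had 85.1 ± 51.2, 32.1 ± 24.8 and 90.7 ± 48.0 CPM of the same genes. Cluster 13, also led by C1q genes, held 218 of the 569 cells of the class. Its medians were only 745.5 to 823.5 UMIs per mouse, and its values are not given.

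All 10 genes were higher in the light zone than in the dark zone of the germinal centre. Cd83, Nfkbie, Nfkbia and Tnfaip3, a target and the feedback inhibitors, rose most, followed by the non-canonical subunits Nfkb2 and Relb. The canonical subunits Rel and Nfkb1 rose least. GC B-like cells were ranked in each mouse by dark minus light zone genes, none of them a member. The 16 light zone genes included Cd40, Egr1, Egr2, Egr3, Nr4a1, Cd69 and Batf, and Cd40 also belongs to the non-canonical route. The ranking is therefore not independent of the pathway, and its part in the differences was not tested. The ranking genes were left out of the test. Of 3 equal parts, those at the ends were summed, giving light zone and dark zone cells with a middle part between them. The ends held 993 cells each, and 465 cells or 15.6% of all lay within 0.1 SD of a boundary. Light zone cells had fewer UMIs, with medians of 6038 to 11036 per mouse against 10444 to 18137 in the dark zone. The 7 T lineage markers summed to 89.2 to 164 CPM in light zone and 58.6 to 97.6 CPM in dark zone cells, higher in the light zone of all 5 mice, with up to 3 of the 7 at 0 in a mouse, and their part in the result was not tested.

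**Figure D2:**
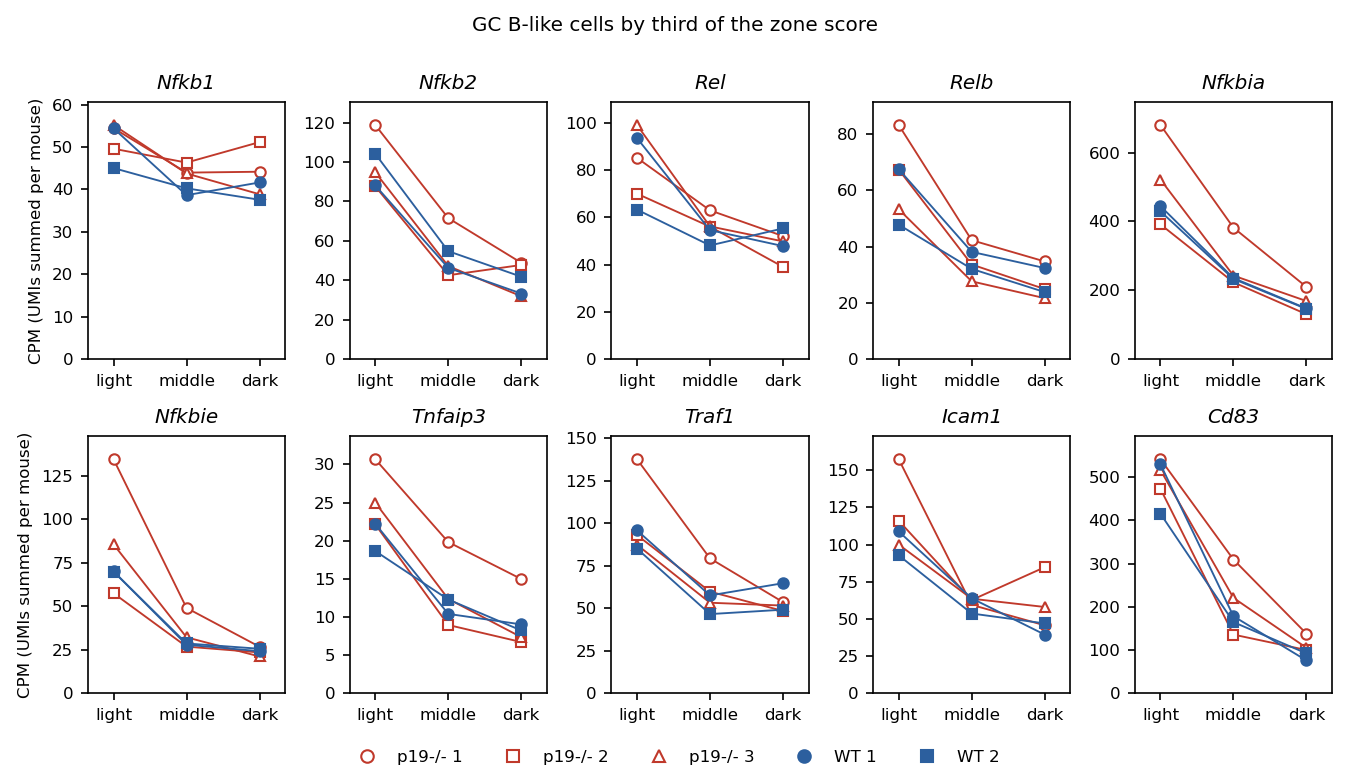
Light zone, middle and dark zone cells of the GC B-like class, per mouse. Points are CPM of 1 mouse in each part of the ranking, joined by a line, with 1 panel per gene. Cd83 lies between 415 and 541 CPM in the light zone and between 76.1 and 138 CPM in the dark zone.

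Among the inhibitors, Nfkbia stood in the light zone at 679.9, 391 and 522 CPM in p19-/- 1, 2 and 3 and at 444 and 429 CPM in WT 1 and 2, and in the dark zone at 209.8, 131, 169, 147 and 146 CPM in the same order. Nfkbie stood at 135, 57.6, 85.7, 70.1 and 70.1 CPM in the light zone and at 26.8, 23.6, 21.2, 24.3 and 25.7 CPM in the dark zone. Tnfaip3 stood at 30.7, 22.1, 25.0, 22.2 and 18.7 CPM against 15.0, 6.73, 7.37, 9.04 and 8.25 CPM. In each of these 3 genes every light value lay above every dark value, and p19-/- 1 was the highest mouse in the light zone. The log2 fold changes, light over dark, were 1.58 (SE 0.05, edgeR adjusted p = 4.54e-09) for Nfkbia, 1.70 (SE 0.13, edgeR adjusted p = 1.74e-06) for Nfkbie and 1.37 (SE 0.15, edgeR adjusted p = 3.8e-05) for Tnfaip3.

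Cd83 stood at 541, 473, 516, 529 and 415 CPM in the light zone, and at 138, 100.3, 105, 76.1 and 92.6 CPM in the dark zone. Icam1 stood at 157, 116, 99.97, 109 and 92.8 CPM against 45.7, 84.8, 58.1, 39.5 and 47.0 CPM, and Traf1 at 138, 93.0, 87.3, 95.8 and 85.1 CPM against 53.6, 48.5, 51.6, 64.7 and 49.2 CPM. The zones did not overlap in any of the 3 targets, although p19-/- 2 had a dark Icam1 value close to the lowest light values. Their log2 fold changes were 2.28 (SE 0.10, edgeR adjusted p = 3.1e-08) for Cd83, 1.04 (SE 0.15, edgeR adjusted p = 0.000241) for Icam1 and 0.82 (SE 0.10, edgeR adjusted p = 9.84e-05) for Traf1.

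For the non-canonical subunits, Nfkb2 stood at 119, 87.7, 94.8, 88.1 and 104 CPM in the light zone against 48.9, 47.8, 31.9, 33.3 and 41.8 CPM, and Relb at 83.1, 67.3, 53.2, 67.4 and 47.8 CPM against 34.7, 24.9, 21.7, 32.4 and 23.8 CPM. Their log2 fold changes were 1.29 (SE 0.10, edgeR adjusted p = 1.43e-06) and 1.16 (SE 0.09, edgeR adjusted p = 2.45e-06), with no overlap of the zones. The canonical subunit Rel stood at 85.1, 70.0, 99.0, 93.5 and 63.2 CPM against 52.1, 39.0, 49.8, 47.8 and 55.3 CPM, also without overlap (log2 fold change 0.72, SE 0.12, edgeR adjusted p = 0.00059). Nfkb1 stood at 54.4, 49.6, 55.2, 54.4 and 45.0 CPM against 44.2, 51.1, 38.9, 41.6 and 37.6 CPM, was higher in 4 of 5 mice and overlapped between the zones (0.28, SE 0.09, edgeR adjusted p = 0.0357). Rela, the canonical partner that is not a member, rose by 0.30 (SE 0.09, edgeR adjusted p = 0.0188).

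All 10 of the 10 members passed as higher in the light zone, against 17.7% of the 8750 genes tested (either direction, 34.2%), and 9 of 10 were higher in every mouse against 21.4%. The median log2 fold change of the members was 1.22, and 0.02 over all genes tested. Against the middle part of the ranking, light exceeded middle in all 5 mice for all 10 members, while middle exceeded dark in all 5 mice for 5 (Relb, Nfkbia, Nfkbie, Tnfaip3 and Cd83), with Cd83 at a mean of 202 ± 67.5 CPM in between. At 2000 UMIs per cell, a Cd83 UMI was found in 52.0% of light and 17.1% of dark zone cells, and Nfkbia in 44.9% and 23.4%. Nfkb1 did not pass with DESeq2 (adjusted p = 0.454), without the low-count filter (edgeR adjusted p = 0.127), without the mouse block (edgeR adjusted p = 0.0680), at 2000 UMIs per cell (edgeR adjusted p = 0.503) or without any 1 mouse other than p19-/- 2 (edgeR adjusted p from 0.0730 to 0.188). Rel did not pass when the mitotic genes were left out of the zone ranking (log2 fold change 0.19, edgeR adjusted p = 0.255).

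Other genes of the pathway were counted from 4 lists, namely upstream signalling, the non-canonical route, other inhibitors and regulators, and other targets. Over all genes tested, 17.7% passed as higher in the light zone and 16.5% as lower. In the light zone, 4 of 6 tested genes of the non-canonical route passed as higher and 0 as lower: Birc3 (log2 fold change 1.25), Tnfrsf13c (0.85, the BAFF receptor), Map3k14 (0.42, NIK) and Traf3 (0.39). Of 13 other inhibitors and regulators, 8 passed as higher and 1 as lower (Tax1bp1, -0.84). Among the 8 were the nuclear IκB genes Nfkbid (1.93), Bcl3 (0.95) and Nfkbiz (0.74), with Tnip2 (1.26) and Zc3h12a (0.80). This list also holds the subunit Rela, which is 1 of the 8. Of 13 other targets, 10 passed as higher, led by Il4i1 (3.30), Lta (2.24), Bcl2a1d (1.86), Tnf (1.37) and Irf4 (1.25), and 1 as lower (Gadd45b, -0.38). Bcl2a1d is 1 of a family of near-identical genes and its counts are uncertain. Of 16 upstream genes 3 passed as higher (Ripk1, 0.55, Ikbkb, 0.54, and Irak4, 0.48) and 1 as lower (Malt1, -0.38). The upstream count as higher is near the share over all genes. These p-values are edgeR's, adjusted over all genes tested.

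Myc-positive GC B cells, those in which Myc marks cells selected to divide again, were taken as GC B-like cells with at least 1 Myc UMI (604 against 2379). Of 10 members, 8 were higher in them, and 0 lower, against 19.7% of 9022 genes tested as higher and 18.3% as lower (38% in either direction). The 3 inhibitors had the largest log2 fold changes of the members, and the canonical subunits Nfkb1 and Rel did not pass. Myc-positive cells were deeper, with medians of 13080 to 24007 UMIs per mouse against 7151 to 12207, and made up 17.4% to 41.0% of the light zone and 10.2% to 21.8% of the dark zone. The part that these differences have in the values was tested only by the thinned and within-zone comparisons.

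**Figure D3:**
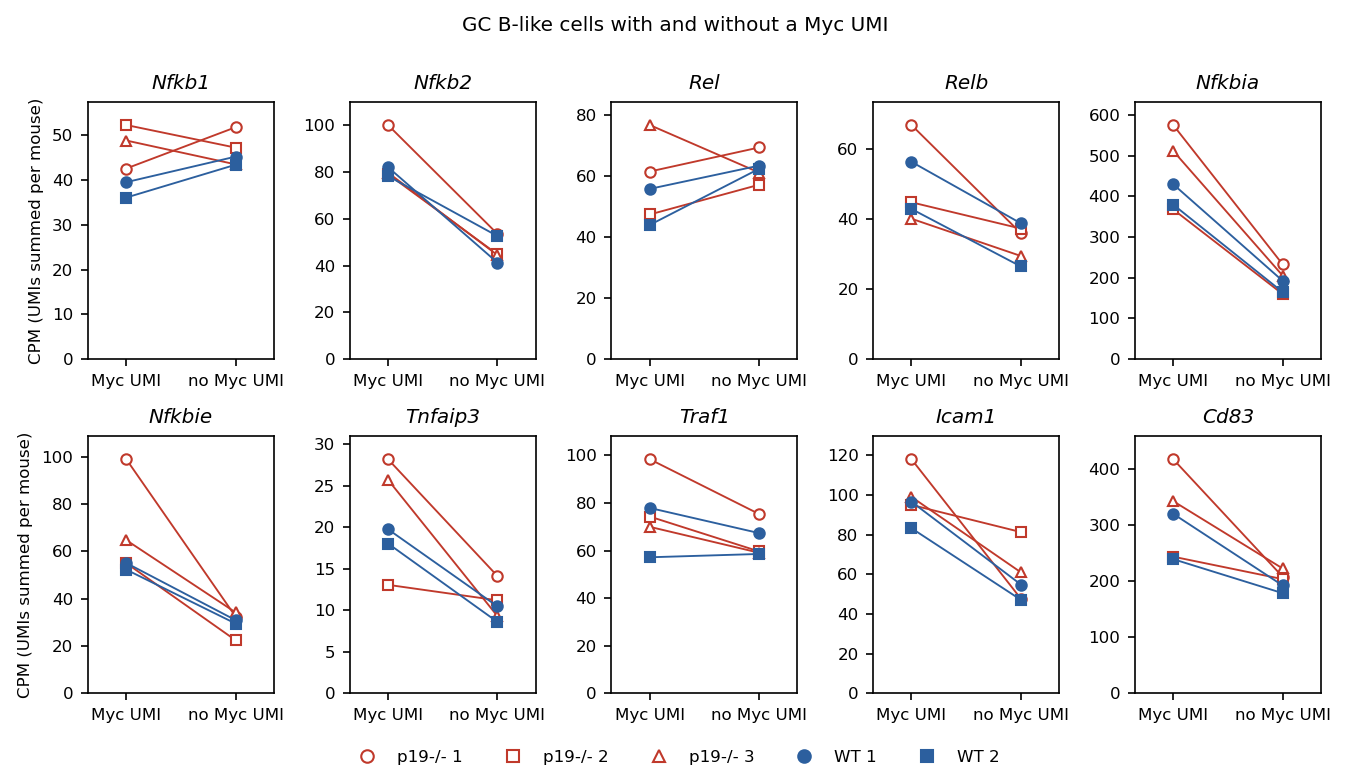
Myc-positive and Myc-negative GC B-like cells, per mouse. Points are CPM of 1 mouse, joined by a line, with 1 panel per gene. Nfkbia lay between 368 and 575 CPM in Myc-positive and between 160.0 and 233 CPM in Myc-negative cells.

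Nfkbia stood at 575, 368, 512, 429.7 and 379.7 CPM in the Myc-positive cells of p19-/- 1, 2 and 3 and WT 1 and 2, and at 233, 160.0, 205, 193 and 165 CPM in the Myc-negative cells. Nfkbie stood at 98.9, 55.0, 64.8, 55.1 and 52.3 CPM against 32.4, 22.4, 34.2, 30.9 and 29.5 CPM. Neither gene overlapped between the cell groups, and p19-/- 1 was the highest mouse for both genes in the Myc-positive cells. Their log2 fold changes were 1.27 (SE 0.05, edgeR adjusted p = 6.24e-08) and 1.08 (SE 0.11, edgeR adjusted p = 3.1e-05). Tnfaip3 stood at 28.2, 13.1, 25.7, 19.8 and 18.0 CPM against 14.1, 11.2, 9.30, 10.5 and 8.60 CPM, higher in every mouse but with p19-/- 2 positive cells under p19-/- 1 negative cells (1.05, SE 0.16, edgeR adjusted p = 0.000319).

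Nfkb2 stood at 100.1, 79.1, 79.7, 82.1 and 78.3 CPM against 53.5, 44.8, 44.5, 41.3 and 52.6 CPM, and Relb at 66.7, 44.7, 40.0, 56.2 and 42.8 CPM against 35.9, 37.2, 29.4, 38.7 and 26.4 CPM. Both were apart in all mice, with log2 fold changes of 0.85 (SE 0.08, edgeR adjusted p = 1.55e-05) and 0.59 (SE 0.09, edgeR adjusted p = 0.00048). The targets Icam1, at a mean of 98.3 ± 12.5 against 58.3 ± 14.0 CPM (0.79, SE 0.11, edgeR adjusted p = 0.000223), and Cd83, at 313 ± 74.4 against 201 ± 16.6 CPM (0.64, SE 0.08, edgeR adjusted p = 0.000141), were apart as well. Traf1 was higher in 4 of 5 mice, at 75.5 ± 15.0 against 64.0 ± 7.28 CPM (0.25, SE 0.08, edgeR adjusted p = 0.0269). Its call was lost without any 1 mouse other than WT 2 (edgeR adjusted p from 0.0585 to 0.0707), with DESeq2 (adjusted p = 0.139) and without the mouse block (edgeR adjusted p = 0.133).

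The canonical subunits did not pass, and the sign of Rel turned when cells were thinned to equal depth. Rel stood at 61.5, 47.5, 76.8, 55.9 and 44.0 CPM in Myc-positive and 69.4, 57.2, 61.2, 63.5 and 62.5 CPM in Myc-negative cells (log2 fold change -0.11, 95% interval -0.35 to 0.13, edgeR adjusted p = 0.455). Nfkb1 was at 43.8 ± 6.64 against 46.2 ± 3.47 CPM (-0.05, 95% interval -0.26 to 0.16, edgeR adjusted p = 0.719), and Rela at 57.5 ± 5.34 against 58.3 ± 4.88 CPM. The median over the members was 0.71, and -0.02 over all genes tested.

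Within the light zone cells alone, 8 of 10 members still passed, against 2165 of 6966 genes in either direction. Nfkbia was at 1.21 and Icam1 at 1.16, while Cd83 was 0.29. Within the dark zone cells alone, a comparison chosen after the data were seen, 3 passed (Nfkbia 0.83, Nfkbie 0.73 and Cd83 0.67). These were 3 of 9 tested members, against 1205 of 6906 genes, and Tnfaip3 was too low to test. Cells were also thinned to 2000 UMIs before a Myc UMI was counted, which left 212 Myc-positive cells. There 4 of 9 tested members passed, namely Nfkbia (1.62), Nfkbie (1.72), Icam1 (1.48) and Cd83 (1.30), against 255 of 3620 genes. Tnfaip3 was again too low to test. Rel was then at 0.65 (edgeR adjusted p = 0.146) and Nfkb1 at -0.52 (edgeR adjusted p = 0.486), and a Rel UMI was found in 20.1% ± 7.95 of Myc-positive and 12.6% ± 2.31 of Myc-negative cells (SD, n = 5 mice). A Nfkbia UMI was then found in 64.7% of Myc-positive and 29.4% of Myc-negative cells.

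Among 16 upstream genes of the pathway, 0 passed as higher in Myc-positive cells and 5 as lower, against 19.7% and 18.3% of all genes. Among the 5 were Malt1 (-0.78) and Prkcb (-0.39), which act between the antigen receptor and the IKK complex, Ikbkg (-0.41), a subunit of that complex, and Sharpin (-0.32), part of the linear ubiquitin ligase. In the non-canonical route Birc3 (1.08) and Cd40 (0.75) passed as higher and Tnfrsf13c (-0.14) as lower. Nfkbid (1.58), Bcl3 (1.03) and Nfkbib (0.50) passed as higher and Cyld (-0.35) as lower among 13 other inhibitors and regulators. Of 14 other targets 7 passed as higher, led by Ebi3 (2.17), Bcl2a1d (1.43) and Il4i1 (1.15), and 1 as lower (Gadd45b, -0.34).

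No cluster was named from memory B markers, so memory-like cells were taken as mature non-GC B-like cells whose B cell receptor was class-switched in the same mouse (226 cells, against 291 with IgM or IgD). Rel was lower in the switched cells, and the other tested members did not pass. Rel stood at 74.1, 32.9, 79.0, 66.3 and 98.3 CPM in the switched cells of p19-/- 1, 2 and 3 and WT 1 and 2, and at 97.2, 71.0, 102, 172 and 103 CPM in the unswitched cells. It was lower in 5 of 5 mice although the ranges overlapped (log2 fold change -0.61, SE 0.20, edgeR adjusted p = 0.0444). Without WT 1 the difference was -0.38 (edgeR adjusted p = 0.350), and it also did not pass without p19-/- 1, 2 or 3 in turn (edgeR adjusted p = 0.0743, 0.0753 and 0.0713), without the mouse block (edgeR adjusted p = 0.0893), without the low-count filter (edgeR adjusted p = 0.159) or with DESeq2 (adjusted p = 0.486). This was 1 of 9 tested members (Tnfaip3 was too low), against 5.94% of 4223 genes called as lower, and 0 of 9 were called as higher, against 5.8%.

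Cd83 was at 270.2 ± 65.8 CPM in switched and 345 ± 88.6 in unswitched cells (log2 fold change -0.34, edgeR adjusted p = 0.212), and Nfkbie at 68.9 ± 18.4 and 93.1 ± 29.6 CPM (-0.37, edgeR adjusted p = 0.254). The remaining tested members lay between -0.29 (Relb) and 0.23 (Icam1). The cells differed in depth, with medians of 8075 to 13935 UMIs per mouse in switched and 2612 to 5995 in unswitched cells, and p19-/- 2 had only 19 unswitched cells. The 7 T lineage markers summed to 19 to 58 CPM in switched and 39 to 143 CPM in unswitched cells, and their part in the result was not tested. In the pathway lists, Malt1 (-0.72) and Bcl10 (-0.53), of 8 upstream genes, and Marcksl1 (-0.74) and Pim1 (-0.66), of 10 other targets, passed as lower. None passed as higher. Over all genes tested, 5.94% passed as lower and 5.8% as higher.

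Between genotypes, 0 of the 10 members passed in any of 10 classes, with edgeR or with DESeq2. The classes were the GC B-like cells, their light zone, dark zone and Myc-positive cells, and the mature non-GC B-like, CD4 T-like, Tfh-like, Treg-like, CD8 T-like and macrophage or monocyte-like cells. They overlap in cells, since CD4 T-like pools Tfh-like and Treg-like. With edgeR, the number of members at an unadjusted p under 0.05, with the share of all genes tested, was 1 in GC B-like (8.4%), 0 in the light zone (5.44%), 2 in the dark zone (8.63%), 0 in Myc-positive (7.63%) and 0 in mature non-GC B-like cells (5.03%). It was 3 in CD4 T-like (8.97%), 2 in Tfh-like (9.33%), 4 in Treg-like (7.76%), 1 in CD8 T-like (3.68%) and 2 in macrophage or monocyte-like cells (6.42%). Over all genes, the edgeR share called at an adjusted p under 0.05 was 0.019% in GC B-like, 0.0445% in the light zone, 0.0643% in the dark zone, 0.044% in Myc-positive and 0.0137% in mature non-GC B-like cells. It was 0.656% in CD4 T-like, 0.662% in Tfh-like, 0.638% in Treg-like, 0% in CD8 T-like and 0% in macrophage or monocyte-like cells.

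**Figure D4:**
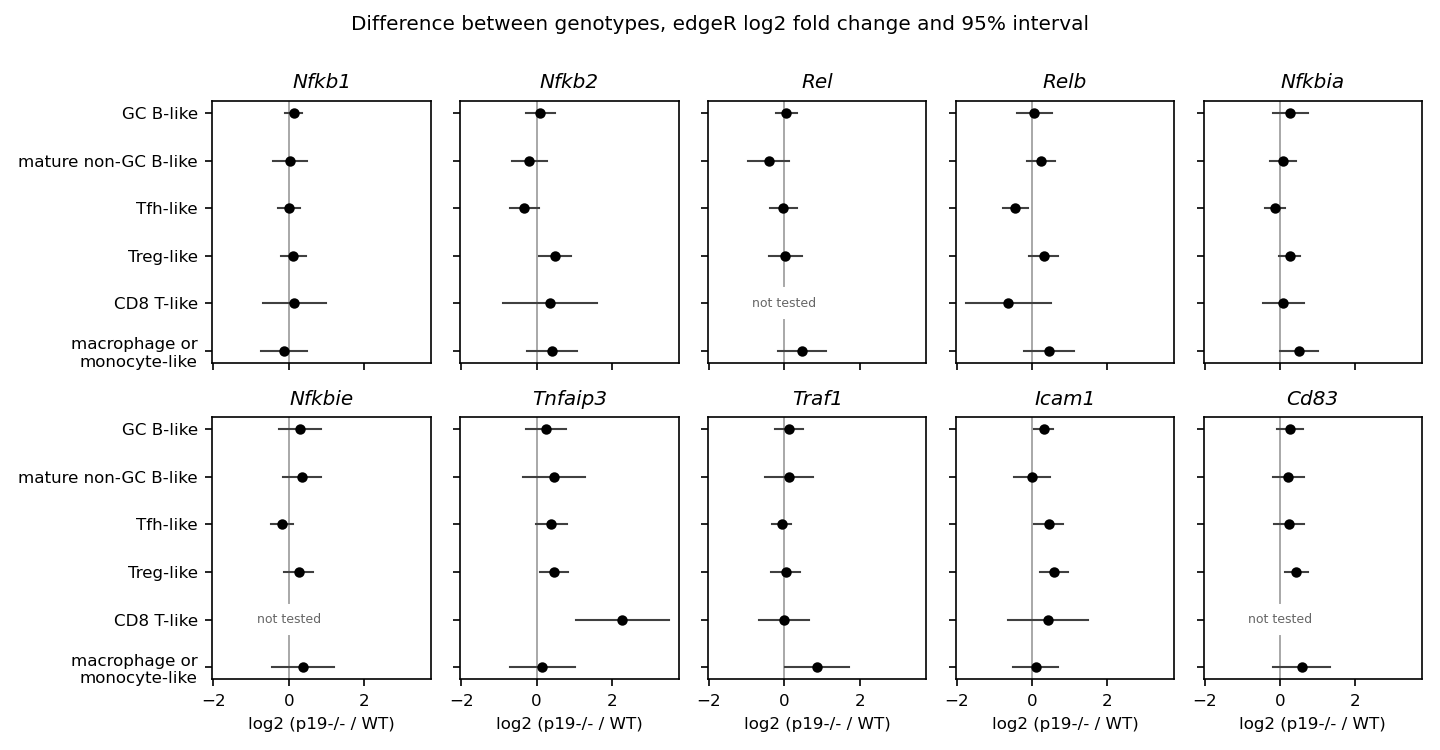
Fold change of each gene between genotypes, p19-/- over WT, by class. Points are log2 fold changes with their 95% intervals from edgeR, with 1 panel per gene and 6 classes as rows. In Treg-like cells all 10 points are above 0, and none passed the adjusted threshold.

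In GC B-like cells all 10 log2 fold changes were positive, from 0.06 to 0.31, with a median of 0.19 against 0.00 over all genes. Icam1 stood at 83.2, 86.3 and 71.5 CPM in the p19-/- mice and at 65.3 and 61.6 CPM in WT (0.31, 95% interval 0.06 to 0.56, edgeR adjusted p = 0.535). Nfkb1 stood at 47.1, 49.1 and 45.0 CPM against 43.8 and 40.5 CPM. These 2 of 10 had every p19-/- mouse above both WT mice, as did 15.9% of all genes. Nfkbia, at 406, 237 and 291 against 252 and 251 CPM, and Cd83, at 314, 219 and 257 against 225 and 203 CPM, overlapped. p19-/- 1, the library with many mitochondrial barcodes, was the highest mouse for 7 of 10 members here. Without it 7 of 10 were positive and the median was 0.03, with Traf1 at -0.04, Nfkb2 at -0.06, Relb at -0.12 and Icam1 at 0.28. The 7 T lineage markers summed to 102.1 to 102.6 CPM in p19-/- and 67.8 to 85.4 CPM in WT GC B-like cells, without overlap, and their part in the values was not tested.

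The light against dark difference did not differ between genotypes for any member by an interaction test (0 of 10 passed, against 0.0114% of all genes, edgeR adjusted p = 0.9999 for every member, and 0 members at an unadjusted p under 0.05). The widest 95% interval of a member spanned 1.41 log2 units, so moderate differences were not detectable. In the mature non-GC B-like cells, Relb stood at 70.3, 66.6 and 67.1 CPM against 57.5 and 55.2 CPM, 1 of 10 members with p19-/- entirely above WT against 12.5% of genes (0.25, SE 0.17, edgeR adjusted p = 0.954). Rel stood at 80.4, 46.2 and 90.5 CPM against 101 and 94.9 CPM, 1 of 10 entirely below against 9.08% (-0.42, SE 0.24, edgeR adjusted p = 0.949).

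In Treg-like cells all 10 members were again positive, with a median of 0.29 against -0.00 over all genes. Icam1 stood at 128, 144 and 108 CPM in p19-/- 1, 2 and 3 and at 89.4 and 79.1 CPM in WT (0.58, SE 0.18, edgeR adjusted p = 0.274). Cd83 stood at 363, 335 and 319 CPM against 236 and 269.9 CPM (0.44, SE 0.15, edgeR adjusted p = 0.351), and Tnfaip3 at 142, 147 and 107 CPM against 92.0 and 97.0 CPM (0.46, SE 0.18, edgeR adjusted p = 0.482). With Nfkb1, these made 4 of 10 members in which every p19-/- mouse lay above both WT mice, against 10.2% of genes. Nfkb2 stood at 136, 159 and 98.7 CPM against 81.9 and 100.2 CPM, so that p19-/- 3 overlapped WT (0.48, SE 0.20, edgeR adjusted p = 0.509). p19-/- 2 was the highest mouse for 7 of 10 members, and without it 8 of 10 were positive and the median was 0.23. B lineage markers summed to 39 to 229 CPM in p19-/- and 38 to 89 CPM in WT Treg-like cells, and the 12 macrophage or monocyte markers to 51.3 to 68.6 CPM against 50.4 to 50.6 CPM, and their part in the values was not tested.

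**Figure D5:**
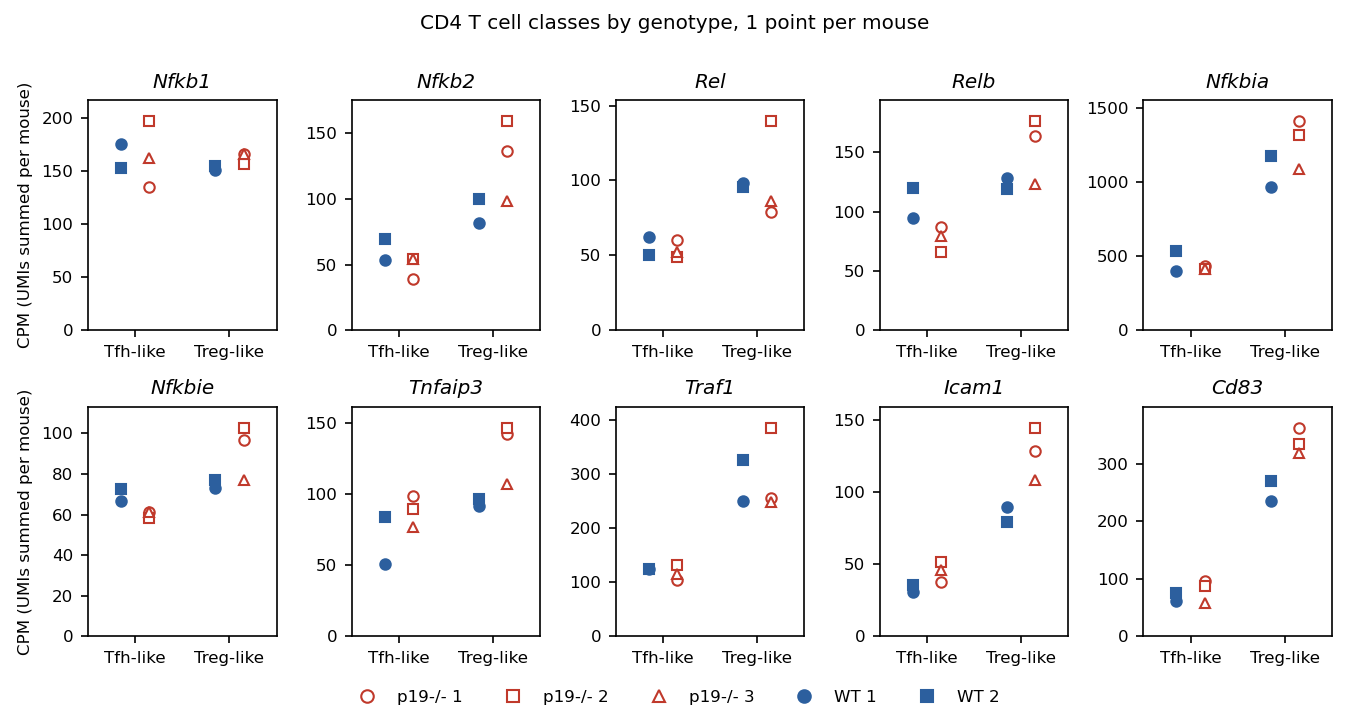
Levels in Treg-like and Tfh-like cells by mouse and genotype. Points are single mice in CPM, open for p19-/- and filled for WT. Icam1 in Treg-like cells lies between 108 and 144 CPM in p19-/- and between 79.1 and 89.4 CPM in WT.

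In Tfh-like cells 6 of 10 members were negative, and the median was -0.05 against 0.01 over all genes. Relb stood at 86.8, 66.0 and 79.9 CPM against 94.9 and 120.0 CPM (-0.45, SE 0.15, edgeR adjusted p = 0.365), and Nfkbie at 61.4, 58.4 and 61.2 CPM against 66.6 and 72.6 CPM. These 2 of 10 had every p19-/- mouse below both WT mice, as did 13.8% of genes. Icam1 stood at 37.4, 51.7 and 46.3 CPM against 30.5 and 35.8 CPM, entirely above (0.44, SE 0.18, edgeR adjusted p = 0.468; 1 of 10 members, against 11.3% of genes). Erythroid markers summed to 5.74 to 17.6 CPM in p19-/- and 59.5 to 104 CPM in WT Tfh-like cells, which is RNA of another cell type that moved with the genotype, and its part was not tested.

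A test of whether the genotype difference itself differed between Treg-like and Tfh-like cells, chosen after the values were seen, passed for 0 of 10 members, against 0.157% of 8300 genes. The differences were 0.79 (SE 0.24, edgeR adjusted p = 0.375) for Nfkb2, 0.75 (SE 0.21, edgeR adjusted p = 0.301) for Relb and 0.38 (SE 0.12, edgeR adjusted p = 0.403) for Nfkbia on the log2 scale. In the pooled CD4 T-like cells, Icam1 stood at 61.3, 77.8 and 75.3 CPM against 51.7 and 50.2 CPM (0.51, SE 0.13, edgeR adjusted p = 0.176). Cd83 stood at 166, 157 and 182 CPM against 125 and 140.1 CPM (0.37, SE 0.11, edgeR adjusted p = 0.293), and Tnfaip3 at 110.2, 106 and 91.1 CPM against 65.7 and 88.1 CPM (0.42, SE 0.14, edgeR adjusted p = 0.357). These 3 of 10 lay entirely above WT, against 11% of genes. Erythroid markers summed to 4.34 to 18.7 CPM in p19-/- and 53.5 to 72.3 CPM in WT CD4 T-like cells, and their part was not tested.

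In CD8 T-like cells 7 members could be tested. Tnfaip3 stood at 74.5, 56.9 and 46.3 CPM in p19-/- (23, 17 and 8 UMIs) and at 4.47 and 19.7 CPM in WT (1 and 5 UMIs), with a log2 fold change of 2.28 (95% interval 1.04 to 3.51, edgeR adjusted p = 0.392). It was the 1 of 7 tested members entirely above WT, against 7.98% of genes. It passed without the low-count filter (2.30, edgeR adjusted p = 0.0249) and with sex as a covariate (2.37, edgeR adjusted p = 0.0422), and not with DESeq2 (2.35). Leaving out each mouse gave 1.69 without WT 1 (edgeR adjusted p = 0.998), 3.59 without WT 2 (edgeR adjusted p = 0.126) and 2.04 to 2.38 without a p19-/- mouse. The 6 B lineage markers summed to 13.4 to 35.6 CPM in p19-/- and 49.1 to 74.9 CPM in WT, and their part was not tested. Relb stood at 45.4, 26.8 and 11.6 CPM against 49.1 and 47.3 CPM (-0.63, SE 0.52, edgeR adjusted p = 0.999).

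In macrophage or monocyte-like cells 9 of 10 members were positive, with a median of 0.43 against 0.00 over all genes, which was 0.58 without WT 1 and 0.21 without WT 2. Traf1 stood at 93.2, 60.1 and 41.9 CPM against 46.1 and 32.3 CPM (0.87, SE 0.40, edgeR adjusted p = 0.749), and Nfkbia at 714, 612 and 509 CPM against 509.8 and 387 CPM (0.52, SE 0.24, edgeR adjusted p = 0.749). Both overlapped between groups. Traf1 was lower in cluster 15 of this class than in cluster 16, and the part of the mix of clusters in these values was not tested. Relb, at 82.6, 82.0 and 114 CPM against 82.0 and 53.8 CPM, was the 1 of 10 that lay entirely above WT, by a margin of a fraction of a CPM, against 7.93% of genes. Erythroid markers summed to 108 to 794 CPM in p19-/- and 93 to 4250 CPM in WT, and T lineage markers to 72 to 544 CPM and 11 to 110 CPM, and their part in these values was not tested. Dendritic cell-like cells were too few in 1 mouse for a test. The genotype difference of Relb in these and in mature non-GC B-like cells was also set against that in Tfh-like and CD8 T-like cells, where it had the opposite sign. It passed in 0 of 4 interaction tests, against 0.0121% of genes for mature non-GC B-like against Tfh-like cells, 0.157% for macrophage or monocyte-like against Tfh-like, 0.0257% for macrophage or monocyte-like against CD8 T-like and 0.0% for mature non-GC B-like against CD8 T-like cells.

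Of the pathway lists, only Ebi3, which encodes a subunit of IL-27 and IL-35, passed between genotypes. It was lower in p19-/- Treg-like cells (log2 fold change -1.35, SE 0.24, edgeR adjusted p = 0.0069) and in CD4 T-like cells (-1.10, SE 0.22, edgeR adjusted p = 0.0497), which share cells.

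The genes most like each member over 54 class-by-mouse sums were found by Pearson r of log2(CPM + 1) among 8039 genes, a description over sums that share mice and libraries. Tnfaip3 was most like Itgav (r = 0.920), Nfkb1 like Ptms (0.910), Nfkbia like Coro1b (0.904), Traf1 like Npepl1 (0.893) and Nfkb2 like Crtc2 (0.891). Relb was most like Bcl2a1b (0.876), Icam1 like Washc4 (0.873), Rel like Aim2 (0.848) and Cd83 like Plekho1 (0.815). Only Nfkb2 and Nfkbie (0.857) were in each other's nearest 3 among the members.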

How the data were processed

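Spleen cells of 3 BXD2-p19-/- and 2 BXD2-WT mice were measured in 5 RNA libraries and 5 B cell receptor libraries. The authors deposited raw UMI counts per gene and barcode, with no normalization, made with Cell Ranger 3.0.2 and STAR (per the submitters' processing notes). The deposited B cell receptor tables were used only for the constant gene of productive heavy chains. Mice were the replicates. The p-values set genotype differences against the spread between mice, and differences within mice against the spread of those differences over mice.

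Barcodes with over 10% mitochondrial UMIs or under 200 genes were removed. Scrublet's automatic threshold failed, so the expected share of doublets (0.8% per 1000 cells) was taken by highest score, 156 of 9356. Cells were clustered with scanpy 1.11.5 and leidenalg 0.10.2 (2000 variable genes, 20 components, 20 neighbours, resolution 1), without receptor segments, the members or the pathway genes, and clusters were named from marker lists. Counts were summed per class and mouse and tested in edgeR 4.0.16 (R 4.3.3; TMM scaling, filterByExpr, quasi-likelihood test, Benjamini-Hochberg over all genes tested, 0.05), with the mouse as a block within mice. DESeq2 1.42.0 was an alternative. The scripts were tested on simulated data. Intervals of genotype comparisons cover the spread between mice, and those of comparisons within mice cover the spread of the difference over mice. Shares of thinned cells with a UMI are means over mice.

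The members and lists were chosen with earlier results of these data known. The members were always named, with Rela, up to 5 called pathway genes per direction and list by size of fold change, and the 3 genes most like each member. The values of 1 pathway gene are not reported here. Alternatives were the low-count filter, DESeq2, each mouse left out, the replicate block, sex as a covariate, doublets kept, a 5% mitochondrial limit, thinning to 2000 UMIs, another zone score and 2 Myc UMIs.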

Additional observations from a re-analysis of the deposited data

Results flagged for a closer look

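In mature non-GC B-like cells, the Tnfaip3 values of switched and unswitched cells had opposite orders in the 2 genotypes, on few molecules. It stood at 31.4, 20.3 and 19.3 CPM in the switched and 37.4, 55.2 and 22.7 CPM in the unswitched cells of p19-/- mice, lower in all 3, from 11, 8 and 11 against 10, 7 and 14 UMIs. It stood at 37.1 and 15.3 against 10.99 and 8.96 CPM in WT mice, higher in both, from 19 and 9 against 3 and 2 UMIs. The mean change in p19-/- minus that in WT was -30.99 CPM, and this difference was not tested, because Tnfaip3 was too low for the test. No other member's switching difference passed a test between genotypes.

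Relb had every p19-/- mouse above both WT mice in mature non-GC B-like and macrophage or monocyte-like cells and every p19-/- mouse below both WT mice in Tfh-like and CD8 T-like cells. Over all genes such shares were 12.5% and 7.93% above and 13.8% and 10.5% below, and in macrophage or monocyte-like cells the nearest mice stood at 82.0 and 82.0 CPM. The log2 ratio of p19-/- over WT differed by 0.7415 between mature non-GC B-like and Tfh-like cells and by 1.06 between mature non-GC B-like and CD8 T-like cells. It differed by 0.9203 between macrophage or monocyte-like and Tfh-like cells and by 1.239 between macrophage or monocyte-like and CD8 T-like cells. Tested as an interaction in edgeR, chosen after these values were seen, the differences were 0.68 (SE 0.24, edgeR adjusted p = 1), 0.91 (SE 0.51, edgeR adjusted p = 1), 0.87 (SE 0.37, edgeR adjusted p = 0.808) and 1.07 (SE 0.58, edgeR adjusted p = 1), and 0 of the 4 passed. Relb had 2 to 14 UMIs per p19-/- mouse in CD8 T-like cells.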

How the results depend on the processing

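The light zone comparison called 9 to 10 members when each mouse was left out and the Myc comparison 7 to 8, while every genotype comparison and the genotype by zone test stayed at 0. For switching the range was 0 to 1, and DESeq2, no low-count filter and no mouse block each gave 0. Thinning to 2000 UMIs left 4 of 9 tested members in the Myc comparison. The dark zone cells alone left 3 of 9, where Traf1 turned to -0.082, and Tnfaip3 was too low to test in both. In CD8 T-like cells 1 member (Tnfaip3) passed with no low-count filter, against 29 of 11985 genes. With sex as a covariate the same member passed there, against 19 of 4333 genes. With the replicate block, 1 member passed in CD4 T-like cells (Tnfaip3, 0.51, edgeR adjusted p = 0.0056), against 339 of 10176 genes. In Treg-like cells 1 passed with the block (Nfkb2, 0.70, edgeR adjusted p = 0.041), against 133 of 8471 genes. The main fits called 64 of 9762 genes in CD4 T-like and 50 of 7838 in Treg-like cells, so the block raised the calls over all genes. The mouse p19-/- 3 was the only male and the only mouse with its number. The sex term takes up that mouse alone. The block takes it up too, and also fits the difference between mice numbered 1 and mice numbered 2. The labels do not say that numbers pair mice, and the deviations of same-numbered mice correlated at -0.09 and 0.01 over 7158 genes. With doublets kept, the unnamed B cluster took in other cells and Rel, Tnfaip3, Traf1 and Icam1 moved to 41.6, 12.8, 60.3 and 67.2 CPM. Genes called in GC B-like cells numbered 2, against 218 with no filter, 50 with DESeq2 and 44 with the block. Of the fold changes, 1420 kept their side of the threshold (113 of them changed sign while uncalled in both), 28 lost the call, 5 gained it and 1 called value reversed. At this depth Rel, Nfkbie and Cd83 in CD8 T-like cells and Tnfaip3 in the switching comparison could not be tested, and 2 WT mice limit every genotype comparison.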

Other observations

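Unnamed T cells (866, 3 clusters) had 816 ± 159 CPM of Nfkbia and 180 ± 35.1 CPM of Traf1 over 5 mice, the next means after Treg-like cells for Nfkbia and after dendritic cell-like cells for Traf1. An unnamed B cluster led by Sox4 and Pcp4, with 300 of its 393 cells in p19-/- 1, had 2.92 ± 5.85 CPM of Tnfaip3 and 16.0 ± 19.6 CPM of Icam1 in 4 mice. Plasma cell-like cells had the lowest mean of Nfkb1, Nfkb2, Rel and Relb among the 11 cell groups compared. These values rest on few molecules, with 1 to 8 UMIs of Rel and 0 to 16 of Relb per mouse. Rela, which is not a member, was lowest there as well (24.3 ± 4.76 CPM).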
